A study of Mus musculus with 24 samples.

Results

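The measurements concern the response of empty-vector cells to BRD3308, an inhibitor of histone deacetylase 3 (HDAC3). They rest on 8 of the 24 RNA sequencing libraries of the study, chosen by their labels: 4 libraries of BB cells treated with BRD3308 and 4 of BB cells treated with DMSO, the solvent of the drug. BB stands for backbone, the lentiviral vector without an ERG insert. All 8 libraries came from ER-Hoxb8 cells of C57BL/6 origin, a murine granulocyte-monocyte progenitor (GMP) line. In both groups beta-estradiol had been washed out, so the treated and the control cells alike had left the condition in which the line is held as a progenitor. BRD3308 was given at 5 µM for 36 h according to the deposited design and the methods, whereas the running text of the study names a longer time and a figure legend on ERG-expressing cells a lower dose. The other 16 libraries came from cells of the same line carrying WT-ERG or P199L-ERG, the latter a variant of the transcription factor with 1 amino acid changed, each treated with DMSO or BRD3308 in 4 replicates. They entered the same model and served for a comparison at the end. The replicates are described as independent experiments on stable lines sorted for GFP after transduction, and separate transductions are not described, so the p-values measure the spread between these experiments, which may be technical.

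HDAC3 is the catalytic subunit of NCoR corepressor complexes, which sequence-specific factors bring to promoters and enhancers, where HDAC3 removes acetyl groups from histone tails. Loss of acetylation is generally tied to low transcription, and an inhibitor of the enzyme is generally used to raise it. ER-Hoxb8 cells carry the homeobox protein HOXB8 fused to the hormone-binding part of the estrogen receptor. While estradiol is present the fusion keeps them as dividing progenitors, and after its withdrawal they move toward neutrophils over several days. The level of a gene is given below as CPM, its counts relative to the library total in the usual CPM unit, after TMM scaling, and a change as log2 of BRD3308 over DMSO. CPM is not divided by gene length, so it compares libraries and not genes.

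The 8 libraries held 12802587 to 15775631 counts, with medians of 14058363 in DMSO and 14582180.5 in BRD3308. The labelled cell type was checked against its markers. All 17 genes of a GMP list passed the filter on low counts, and together they took 29260 to 29860 CPM in DMSO. Mpo, which codes for myeloperoxidase, stood at 16056, 15789, 15423 and 15768 CPM in the 4 DMSO libraries. Several defining genes of other lineages were at 0, with no count of Cd4, Gzma, Ncr1 or Hba-a1 in any of the 8 libraries. Other members of the same lists were well above 0 in DMSO, with means of 102 CPM for Nkg7, 84.6 CPM for Cpa3, 59.3 CPM for Siglecf, 58.7 CPM for Ighm and 34.2 CPM for Car2. Summed over all members, DMSO libraries held 180.1 to 199.1 CPM of B lymphocyte genes, 115.6 to 125.1 CPM of T lymphocyte and NK genes and 730.8 to 758.1 CPM of megakaryocyte and erythroid genes. Their part in the results was not tested. The first principal component separated the treatments and held 67.3% of the variance between the libraries. The second held 8.37%, and on it same-numbered libraries of both groups lay near each other, from 16.91 in DMSO and 15.67 in BRD3308 for number 1 to -13.59 and -10.06 for number 4. With both libraries numbered 1 left out, 2767 genes rose and 2498 fell, against 3105 and 2849 with all libraries.

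BRD3308 changed a large share of the transcriptome of BB cells. Of 12963 genes tested, 3105 rose, which is 24%, and 2849 fell, which is 22%, by edgeR's quasi-likelihood test with Benjamini-Hochberg adjusted p under 0.05. The numbers of rises and falls were thus similar, but the sizes were not. Rises beyond 1 on the log2 scale numbered 916 (7.07% of the genes tested), and falls beyond 1 numbered 36 (0.278%). The median change was 0.545 among genes that rose and -0.251 among genes that fell, while the median over all genes tested was 0.00558. TMM scaling sets the bulk of genes near 0, so the near-even split and the median over all genes partly follow from it. A change of RNA common to all genes would not be seen, and small falls depend on the scaling. With library size alone 2958 genes rose and 3063 fell. Large rises were mostly in genes of low level, as the bins of level below show. With more than 30 reads asked of every library, 228 genes rose and 4 fell beyond 1. That filter also drops genes low in DMSO however high they are after the drug, so its counts do not measure the part of level.

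Level and direction went together. Genes were ranked by mean log2 CPM and divided into 4 equal bins. In the lowest bin 29.4% of 3241 genes rose and 3.58% fell. In the highest bin 17.6% rose and 34.9% fell. The median level was 3.85 log2 CPM for genes that rose and 5.9 log2 CPM for genes that fell. The lowest bin held 654 of the 916 rises beyond 1.

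The number of genes detected was higher after the drug. When all 8 were thinned to 12802587 counts, genes with at least 5 counts numbered 13013, 13047, 13062 and 13094 in DMSO and 13427, 13536, 13598 and 13653 in BRD3308. Every treated library thus held more detected genes than every control library, by 499.5 on average (exact two-sided permutation p = 0.0286, the smallest that 4 against 4 allow, adjusted p over 4 measures = 0.0381). Genes not annotated as protein coding took 1.73% ± 0.0605 (SD, n = 4) of the counts in DMSO and 2.0% ± 0.138 (SD, n = 4) in BRD3308, again without overlap (exact permutation p = 0.0286, adjusted p = 0.0381). The 100 genes with most counts took 20.2% ± 0.36 (SD, n = 4) in DMSO and 21.4% ± 0.37 (SD, n = 4) in BRD3308 (exact permutation p = 0.0286, adjusted p = 0.0381). Counts in mitochondrially encoded genes, often read as a sign of RNA or cell quality, overlapped at 4.69% ± 0.242 (SD, n = 4) and 4.55% ± 0.168 (SD, n = 4), and their difference did not pass (exact permutation p = 0.4).

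**Figure D1:**
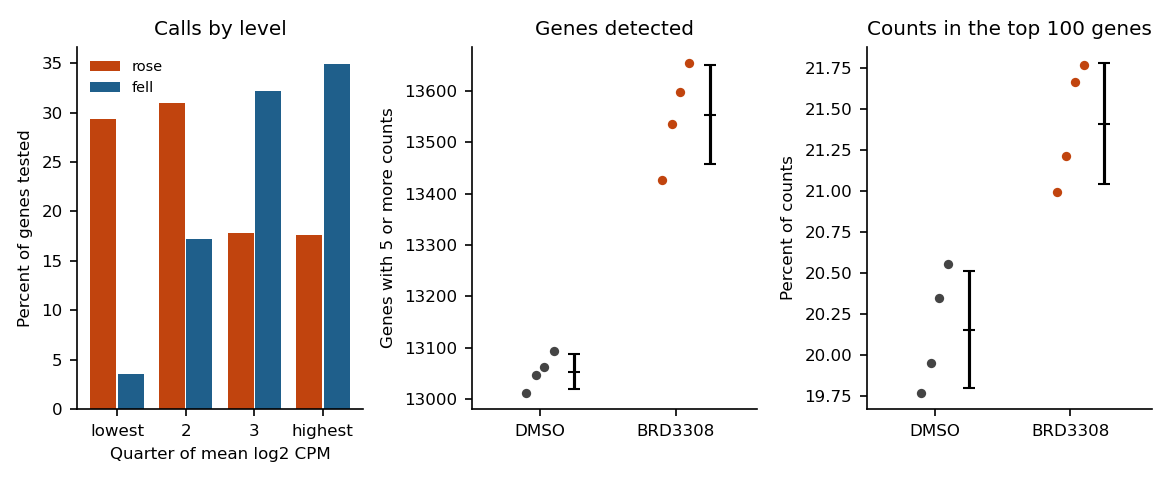
Left, percent of genes that rose or fell in BB cells within 4 equal bins of mean log2 CPM. Middle and right, number of genes with 5 or more counts at a common depth and percent of counts in the 100 genes with most counts, with each library as a point (replicates 1 to 4 from left to right) and the mean with SD beside them; both vertical axes start above 0. Rises outnumber falls in the 2 lower bins and falls outnumber rises in the 2 upper bins, and in the middle and right panels the BRD3308 libraries lie above all DMSO libraries.

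A change of the drug's target was not detected at the level of its RNA. Hdac3 stood at 90.5, 88.5, 91.8 and 89.4 CPM in DMSO and at 91.1, 89.5, 85.7 and 91.0 CPM in BRD3308, and the groups overlapped. Its log2 change was -0.01 ± 0.04 SE with an adjusted p of 0.839. The corepressor Ncor1, which activates the enzyme, did not pass either (-0.05 ± 0.05 SE). Tbl1x and Tbl1xr1, WD-repeat subunits of the same complex, rose by 0.33 and 0.20, and Gps2, another subunit, fell (-0.18 ± 0.06 SE, adjusted p = 0.0182). The call of Gps2 was lost without replicate 4 of DMSO (adjusted p = 0.0603) and without replicate 1 of BRD3308. Of the related class I enzymes Hdac1 rose, 59.6 ± 1.6 CPM in DMSO and 68.2 ± 1.44 CPM in BRD3308 (SD, n = 4), and Hdac2 was at 135 ± 6.49 CPM in DMSO and 127 ± 5.00 CPM in BRD3308, which did not pass (adjusted p = 0.244); without replicate 4 of P199L-ERG in DMSO, which feeds the shared estimate of spread, Hdac2 passed (adjusted p = 0.0443). Over the 17 genes of this list 4 rose and 3 fell, near the 24% and 22% of all genes, with a median of -0.0123. An inhibitor acts on the enzyme, so RNA levels do not measure its effect on the target.

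The largest rises included genes of adhesion, the cell surface and the matrix. Among genes whose groups did not overlap and whose log2 CPM averaged 2 or more, Itgb7 led, the integrin beta 7 subunit that homes lymphocytes to the gut (chr15:102215995-102231944 on GRCm38). It rose from 2.22, 1.52, 1.97 and 1.42 CPM in DMSO to 39.2, 41.1, 36.1 and 42.5 CPM in BRD3308, a change of 4.47 ± 0.11 SE (adjusted p = 2.59e-22). Thy1, a glycoprotein of the cell surface known as a marker of T cells and some stem cells (chr9:44043384-44048579), followed with 8.87, 8.19, 10.2 and 8.36 CPM in DMSO and 131, 126, 123 and 138 CPM in BRD3308 (3.86 ± 0.07 SE, adjusted p = 4.99e-25). For both genes the lowest treated library lay more than 10 times above the highest control.

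Tpm4, a tropomyosin that binds actin filaments, went from 1.29, 1.27, 1.27 and 1.18 CPM to 15.6, 17.1, 16.7 and 20.1 CPM (3.78 ± 0.11 SE). Fn1, which codes for fibronectin (chr1:71585520-71653200), was at 20.2, 21.5, 20.4 and 21.4 CPM in DMSO and at 198.6, 183, 169 and 206 CPM in BRD3308 (3.18 ± 0.09 SE, adjusted p = 1.75e-20). The rise of Ltbp3, a matrix protein that binds latent TGF-beta, was 3.34, with means from 1.30 to 13.3 CPM. Lsp1, an actin-binding protein of leukocytes, stood at 28.8, 30.5, 32.4 and 33.7 CPM before and 204, 216, 217 and 251 CPM after (2.82 ± 0.06 SE). The chemokine receptor Ccr2, through which monocytes leave the marrow (chr9:124101950-124113557), had the smallest p of all genes that rose (adjusted p = 2.98e-25). Its values were 32.8, 35.5, 35.5 and 34.8 CPM in DMSO and 214, 233, 221 and 245 CPM in BRD3308 (2.72 ± 0.05 SE). Fn1, Lsp1 and Ccr2 had 20 CPM or more in every control library, so these rises started from a clear level.

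Also leading were Cyp4f18, a hydroxylase of leukotriene B4 in neutrophils (3.33), the calcium-binding protein S100a6 (3.2) and the calcium channel Trpm2 (2.80). Tlr1, the partner of Toll-like receptor 2 (2.60), and the secreted protein Wfdc17 (2.57) completed the leading 12. Wfdc17 was at 1.64, 1.90, 2.32 and 2.68 CPM in DMSO and 11.4, 11.7, 11.6 and 15.8 CPM in BRD3308, with replicate 4 well above the other treated libraries. By p, Mmp14, a membrane-bound matrix metalloproteinase (2.45 ± 0.06 SE), and Pecam1, an adhesion molecule of endothelium and leukocytes (1.88 ± 0.05 SE), also stood among the first 6.

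**Figure D2:**
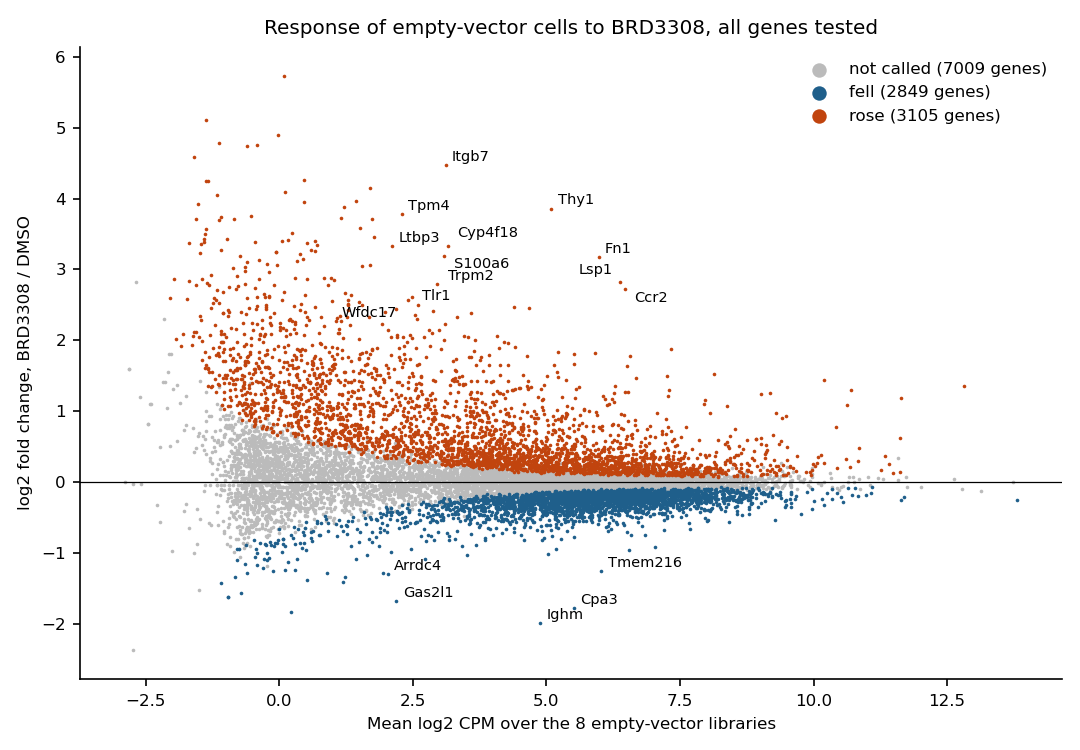
Each point is a gene tested in BB cells, with its mean log2 CPM over the 8 libraries on the horizontal axis and its log2 fold change, BRD3308 over DMSO, on the vertical axis; orange points rose, blue points fell and grey points were not called. The labelled genes are those of the 24 named for the largest changes with a change beyond 1.2, from Ighm at -1.99 to Itgb7 at 4.47, and the upward cloud extends much farther than the downward one.

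Falls were shallower, and the 2 steepest were in Ighm and Cpa3, known from B lymphocytes and mast cells. Ighm, the constant region of the immunoglobulin mu heavy chain (chr12:113418558-113422730), fell from 55.8, 57.8, 57.2 and 63.8 CPM in DMSO to 14.8, 14.6, 14.3 and 15.2 CPM in BRD3308 (-1.99 ± 0.07 SE, adjusted p = 2.24e-18). The transcripts of this locus in myeloid progenitors need not be rearranged, and the counts do not tell which form was measured. Cpa3, the carboxypeptidase of mast cells (chr3:20215620-20242181), stood at 91.7, 83.9, 82.7 and 80.1 CPM in DMSO and at 26.8, 26.1, 22.2 and 24.1 CPM in BRD3308 (-1.77 ± 0.07 SE, adjusted p = 4.85e-18). Tmem216, a protein of the ciliary transition zone, had 93.4, 99.6, 106 and 103 CPM before and 40.7, 43.9, 42.4 and 41.4 CPM after (-1.26 ± 0.08 SE). In each of these genes the 4 treated libraries lay below the lowest control.

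The others were Gas2l1, which links actin and microtubules (-1.67), Arrdc4, an arrestin-domain protein that follows glucose (-1.30), the thioredoxin reductase Txnrd3 (-1.08), Rassf8 (-1.02), the clock gene Per3 (-1.01), Isyna1, the enzyme that makes inositol phosphate from glucose 6-phosphate (-0.96), and the deubiquitinase Usp46 (-0.95). Zfp335os (-0.99) is annotated antisense to another gene, and the strand setting of the counting is not given in the sources used here, so its reads cannot be told apart from those of its partner. The unnamed gene model Gm45819 changed by -0.94. Isyna1 was tight within groups, at 127, 133, 125 and 131 CPM in DMSO and 68.0, 69.0, 64.6 and 64.2 CPM in BRD3308 (adjusted p = 3.09e-17), as were Pxylp1 (-0.92 ± 0.05 SE) and Neto2 (-0.74 ± 0.04 SE), also among the 6 falls with the smallest p.

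**Figure D3:**
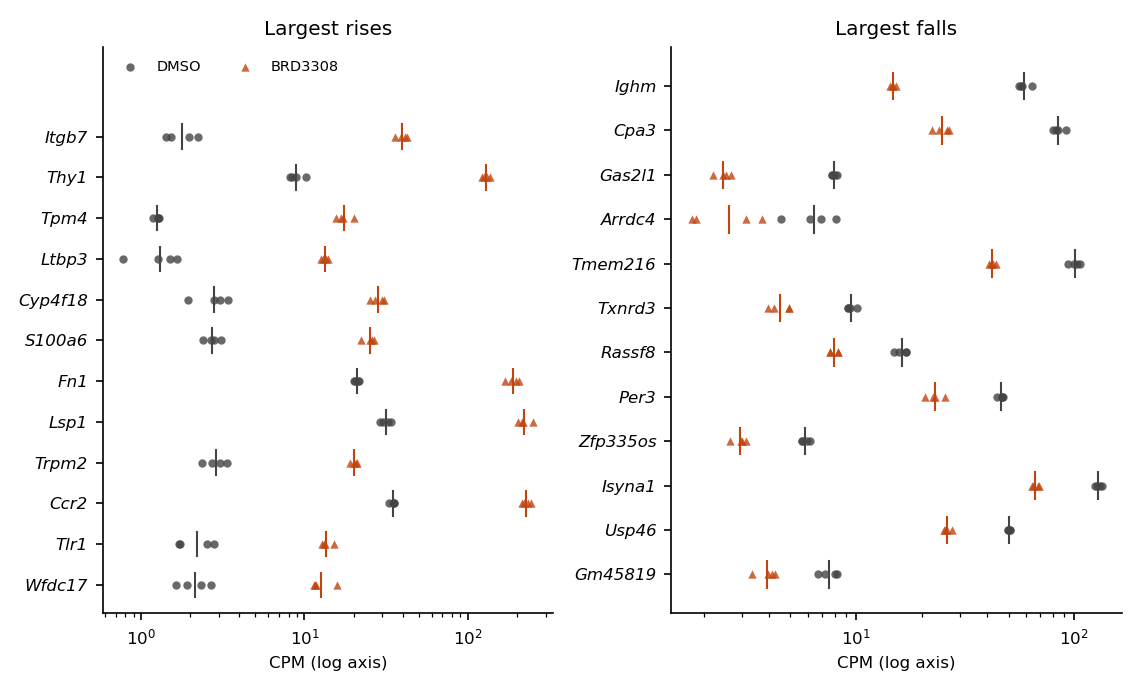
CPM of each BB library on a log axis for the 12 genes with the largest rises (left) and the 12 with the largest falls (right) among genes without overlap whose log2 CPM averaged 2 or more; grey circles are DMSO libraries, orange triangles BRD3308 libraries and vertical bars group means. The groups stand apart in every row, with Itgb7 moving from a mean of 1.78 to 39.7 CPM and Ighm from 58.7 to 14.7 CPM.

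Genes of mature myeloid cells rose as a group. Of 19 monocyte and macrophage genes tested, 17 rose, 12 of them beyond 1, and the other 2 were not called, with a median of 1.18. Of 25 mature neutrophil genes 19 rose and 1 fell, with a median of 0.593. Over all genes 24% rose, with a median near 0. The lists were chosen with earlier results of these data known, so these counts are a description. In bulk RNA, more cells of a type and more RNA per cell of that type cannot be told apart.

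Besides Ccr2, the monocyte genes with the smallest p were Mpeg1, the pore-forming perforin-2 of macrophages, at 162, 164, 174 and 165 CPM in DMSO and 449, 476, 463 and 528 CPM in BRD3308 (1.53 ± 0.05 SE), F13a1, coagulation factor XIII, from 518 to 991 CPM (0.93), the adhesion receptor Adgre1, known as F4/80, from 39.1 to 78.6 CPM (1.01), and the endosomal glycoprotein Cd68, from 30.6 to 77.5 CPM (1.34). Csf1r, the receptor of macrophage colony-stimulating factor, stood at 33.4, 34.8, 40 and 38.5 CPM in DMSO and at 73.4, 74.5, 70.6 and 79.5 CPM in BRD3308 (1.02 ± 0.06 SE). Its ligand Csf1 rose by 1.91, from 10.9 to 41.5 CPM. Ly6c2, part of the Gr-1 epitope on monocytes, had 982, 981, 1099 and 1127 CPM before and 1720.1, 1765, 1798 and 1878 CPM after (0.77 ± 0.06 SE), and Ly6g, the part of that epitope found on neutrophils, 0.429, 0.635, 0.352 and 0.552 CPM before and 2.41, 2.79, 2.27 and 3.32 CPM after (2.42 ± 0.23 SE). The control level of Ly6g was below 1 CPM in every library.

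Among neutrophil genes the chemokine receptor Cxcr2 rose from 30.7 to 69.8 CPM (1.19), and S100a9, a subunit of calprotectin, from 632, 660.2, 817 and 753 CPM to 1659, 1870.5, 1911 and 2339 CPM (1.44 ± 0.11 SE). Itgam and Itgb2, which together form the integrin Mac-1, rose by 0.38 and 0.46. Cxcr4, the receptor that retains cells in the marrow, rose by 0.47, and Ltb4r1, a leukotriene B4 receptor, was the member that fell (-0.23).

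Granule proteins moved in both directions. Primary granule proteins, made in promyelocytes, fell in 7 of 10 genes and rose in 2, with a median of -0.233. Over all genes 22% fell, and in the highest bin of level 34.9%. Mpo fell from the values above to 14164, 13159, 13099 and 12314 CPM (-0.26 ± 0.04 SE), and Prtn3, proteinase 3 (-0.26), Ctsg, cathepsin G (-0.20), and Prss57 (-0.46) fell with it. Elane, neutrophil elastase, went the other way, from 1038, 1009, 1073 and 1122 CPM in DMSO to 2571, 2552, 2631 and 2698 CPM in BRD3308 (1.30 ± 0.05 SE, adjusted p = 4.85e-18), as did Ctsc, the protease that activates these enzymes (0.28). Of 16 secondary and tertiary granule proteins 6 rose and 4 fell, against 24% and 22% of all genes, with a median of 0.0517. Lyz2, lysozyme, rose from 1948, 1924, 2319 and 2247 CPM to 4571, 4618, 4674 and 5404 CPM (1.19 ± 0.07 SE), and the collagenase Mmp8 from 0.429, 0.444, 0.563 and 0.237 CPM to 4.82, 3.74, 3.60 and 4.48 CPM (3.27 ± 0.26 SE), while Tcn2 (-0.23) and Pglyrp1 (-0.29) fell. Of the subunits of the NADPH oxidase, Cybb rose (1.25 ± 0.07 SE) and Ncf1 fell (-0.19 ± 0.03 SE).

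Progenitor markers moved apart from one another. Cd34 rose from 69.1, 57.8, 57.4 and 61.9 CPM to 176, 173, 159 and 175 CPM (1.47 ± 0.05 SE), and Sox4 by 0.82. Kit, the receptor of stem cell factor, was at 279.9, 272, 285 and 286 CPM in DMSO and 263, 268, 263 and 257 CPM in BRD3308 (-0.10 ± 0.04 SE, adjusted p = 0.0298), a call that was lost without replicate 3 or 4 of DMSO and without replicate 1, 3 or 4 of BRD3308 (adjusted p up to 0.0786). Of the 17 GMP genes 6 rose and 5 fell, against 24% and 22% of all genes, with a median of -0.0375.

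Of 18 myeloid transcription factors 5 rose and 4 fell, near the 24% and 22% of all genes, but the list contained a steep rise. Irf8, which directs progenitors to monocytes and dendritic cells (chr8:120736358-120756694), went from 4.79, 5.21, 4.50 and 6.31 CPM in DMSO to 29.8, 25.9, 25.5 and 26.6 CPM in BRD3308 (2.38 ± 0.08 SE, adjusted p = 3.07e-19). Irf5 rose by 1.48, Zeb2 by 0.65 and Cebpb, a factor of emergency granulopoiesis, by 0.51. Cebpe, the factor of granulocyte maturation, fell from 284, 274, 270.2 and 255 CPM to 218, 211, 217 and 198.9 CPM (-0.36 ± 0.04 SE), and Cebpd fell too (-0.35). Cebpa was at 368 ± 13.6 CPM in DMSO and 376 ± 6.26 CPM in BRD3308 (adjusted p = 0.461), and Spi1, which codes for PU.1, at 597 ± 36.0 CPM in DMSO and 565 ± 22.7 CPM in BRD3308 (adjusted p = 0.153). Neither passed. Gfi1, a repressor of monocyte genes, had 377, 404, 381 and 379 CPM in DMSO and 367, 382, 356 and 323 CPM in BRD3308 (-0.11 ± 0.05 SE), just over the threshold with an adjusted p of 0.0526; with single libraries left out it ranged from 0.0171 to 0.225.

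Stem cell factors that act with ERG were also measured. The endogenous Erg rose from 98.8, 94.3, 92.5 and 89.2 CPM to 117, 114, 105 and 109 CPM (0.25 ± 0.04 SE, adjusted p = 2.72e-05), and Gata2 from 7.01, 7.24, 6.83 and 7.88 CPM to 12.4, 12.55, 14.6 and 15.1 CPM (0.92 ± 0.11 SE). Lyl1 (-0.33), Lmo2 (-0.22) and Fli1 (-0.18) fell. Hoxb8 rose by 0.16, from 774 to 862 CPM, where reads of the ER-Hoxb8 transgene and of the endogenous gene cannot be told apart.

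**Figure D4:**
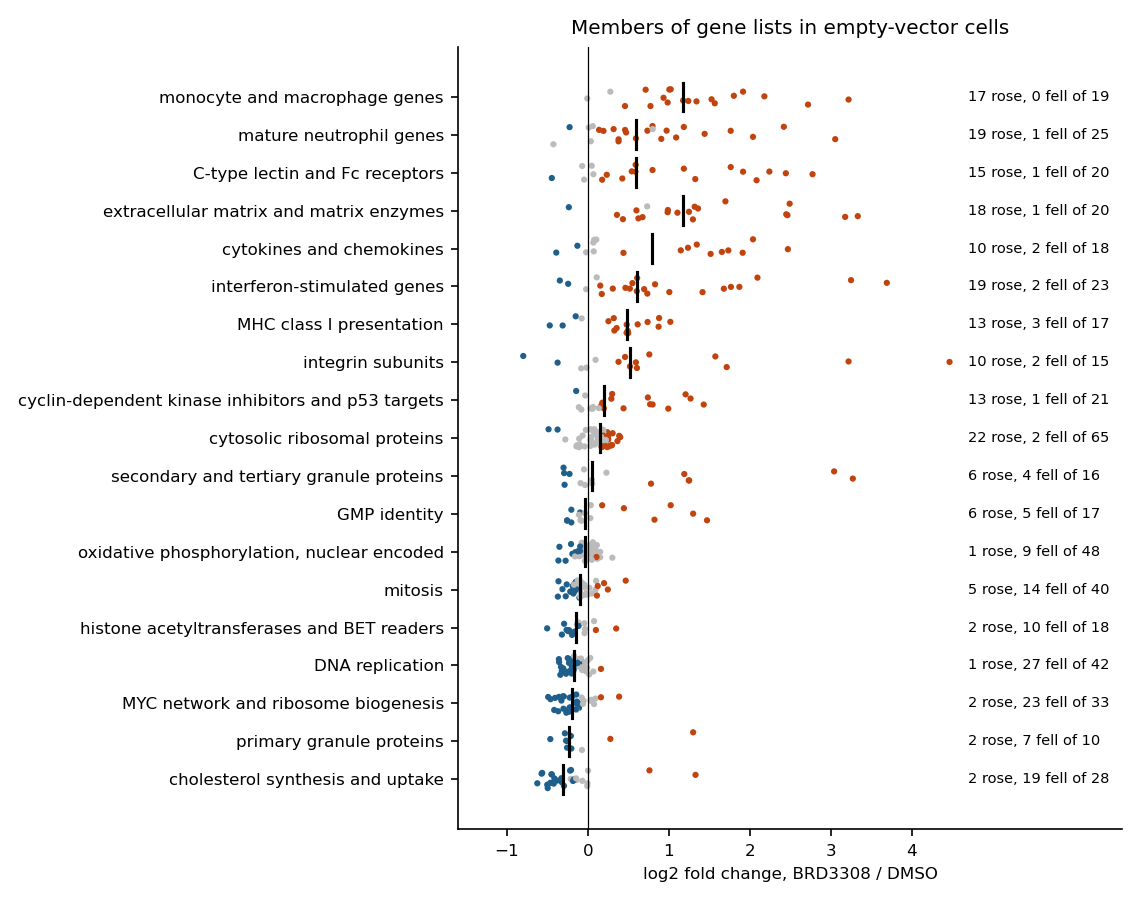
Log2 fold change, BRD3308 over DMSO, of every tested member of 19 gene lists in BB cells; orange points rose, blue points fell, grey points were not called and black bars are medians. Counts at the right give the members that rose and fell of those tested, from 17 rises and 0 falls of 19 monocyte and macrophage genes at the top to 2 rises and 19 falls of 28 cholesterol genes at the bottom.

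Receptors of innate immunity rose alongside the myeloid genes. Among C-type lectin and Fc receptors 15 of 20 tested rose and 1 fell, with a median of 0.589. The shares over all genes were 24% and 22%. Clec4d, a receptor of fungal and mycobacterial glycolipids, rose from 7.40 to 25.3 CPM (1.76 ± 0.13 SE), the high-affinity IgG receptor Fcgr1 from 3.56 to 13.5 CPM (1.92), and Fcgr4 by 1.19, while the inhibitory Fcgr2b rose by 0.54. The adaptor Card9, downstream of such lectins, was the member that fell (-0.45). Pirb rose by 1.33 but has close paralogs that could share its reads.

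Of 20 Toll-like receptors and adaptors tested 9 rose and 4 fell, against 24% and 22% of all genes. The receptors Tlr1, Tlr2 (0.73), Tlr9 (3.06) and Cd180 (1.31) rose, as did Unc93b1, which carries endosomal receptors to their place (0.59). The 4 that fell were signalling proteins: Myd88 (-0.26), Tirap (-0.21), Irak3 (-0.14) and Irak4 (-0.20).

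Interferon-stimulated genes rose in 19 of 23 tested and fell in 2, with a median of 0.609. Among all genes 24% rose and 22% fell. The list held 32 genes, and only members that reached the filter on low counts are counted. Ifit2 rose from 12.2 to 24.5 CPM (1.01 ± 0.08 SE), the nucleic acid sensor Zbp1 by 1.87, Oasl2 by 3.25, Ddx58, which codes for RIG-I, by 0.46, and Samhd1 by 0.52. Eif2ak2, which codes for the kinase PKR, fell (-0.24). The summed level of the list stayed low, at 532.8 to 562.8 CPM in DMSO and 637.7 to 692.1 CPM in BRD3308.

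Antigen presentation by MHC class I rose in 13 of 17 genes and fell in 3, against 24% and 22% of all genes. The median was 0.478. The class I regulator Nlrc5 rose from 21.5 to 43.6 CPM (1.02 ± 0.06 SE), and H2-M3 by 0.88. H2-Q6 (0.87) and H2-Q7 (0.74) rose too, but are near-identical copies between which reads may have been divided. The proteasome subunit Psmb10 (-0.47), the peptide trimmer Erap1 (-0.31) and Tapbp (-0.15) fell. Of the MHC class II genes, H2-DMa (1.17) and H2-Oa (1.32), which edit class II peptides, rose, whereas Ciita, the master regulator, had 2 counts over the 4 DMSO libraries and 3 over the 4 BRD3308 libraries and was not tested. H2-Aa had 0 and 3 counts.

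Of 18 cytokines and chemokines tested, from a list of 29, 10 rose and 2 fell, with a median of 0.794. The shares over all genes were 24% and 22%. Ccl9 rose from 339 to 799.5 CPM (1.24 ± 0.05 SE), its neighbour Ccl6 from 11 to 34.5 CPM (1.66), Il18 from 0.608 to 3.38 CPM (2.47) and Cxcl10 from 2.79 to 9.27 CPM (1.74). Among 30 cytokine and growth factor receptors 18 rose and 5 fell. The chemokine receptor Ccr1 rose from 52.0 to 162 CPM (1.64 ± 0.08 SE), the TNF receptor Tnfrsf1b by 0.62 and Csf2rb2 by 0.87, while Il17ra (-0.30) and Tnfrsf1a (-0.18) fell.

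Matrix and adhesion genes held several of the steepest changes. Of 20 genes of the extracellular matrix and its enzymes, 18 rose, 11 of them beyond 1, and 1 fell, with a median of 1.18. Among all genes 24% rose, 7.07% beyond 1, and 22% fell. The lists held 26 matrix genes and 21 integrin subunits, and only members that reached the filter on low counts are counted. Their summed level went from 4788 to 5575 CPM in DMSO to 12350 to 13450 CPM in BRD3308, most of it thrombospondin 1, Thbs1, which rose from a mean of 4489 to 11528 CPM (1.36 ± 0.06 SE). The basement membrane laminin Lamb2 rose by 2.49 and the membrane protease Adam8 from 8.96 to 49.8 CPM (2.47 ± 0.11 SE), and Emilin1 fell (-0.24). Integrin subunits rose in 10 of 15, among them Itgax, known as CD11c, from 0.361 to 3.37 CPM (3.22), and Itga6 (0.61), and fell in 2, the platelet subunit Itga2b (-0.80) and Itgav (-0.37).

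Of 33 actin genes 13 rose and 8 fell, against 24% and 22% of all genes, with a median of 0.0638. The filament-severing protein Gsn, gelsolin, rose from 229 to 481 CPM (1.07 ± 0.04 SE) and S100a10 by 1.65. The focal adhesion proteins Zyx (-0.38) and Tln1 (-0.24), and profilin, Pfn1 (-0.27), fell.

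Many genes of DNA replication and ribosome biogenesis fell by small amounts. Of 42 DNA replication genes 27 fell and 1 rose, with a median of -0.175. Over all genes 22% fell, and in the highest bin of level 34.9% fell. The helicase subunit Mcm7 went from 479.5, 497, 502 and 516 CPM in DMSO to 376, 397, 396 and 390.1 CPM in BRD3308 (-0.36 ± 0.04 SE), and Cdc45 (-0.32) and the polymerase subunit Pold1 (-0.34) fell as well. Of 40 mitosis genes 14 fell, 5 rose and 21 were not called, with a median of -0.0975. The share that fell was close to the 34.9% of all genes in the highest bin of level. Cdc20 (-0.37) and Mybl2 (-0.36) fell, and Top2a rose (0.20). Of 33 genes of the MYC network and ribosome biogenesis 23 fell and 2 rose, with a median of -0.193, led by Rrs1, from 68.6 to 48.8 CPM (-0.49 ± 0.05 SE), Rrp12 (-0.46) and Wdr12 (-0.31). Myc itself was at 162, 159, 148 and 139.7 CPM in DMSO and 159, 182, 153 and 149 CPM in BRD3308, and did not pass (adjusted p = 0.435).

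Cyclin-dependent kinase inhibitors and p53 targets rose in 13 of 21 genes and fell in 1, with a median of 0.198. The shares over all genes were 24% and 22%. Cdkn1a, which codes for p21 (chr17:29090976-29100727), went from 58.7, 57.2, 59.5 and 54.2 CPM in DMSO to 139, 148, 133 and 134 CPM in BRD3308 (1.27 ± 0.06 SE, adjusted p = 3.2e-16). Cdkn2a rose from 8.33 to 16.5 CPM (0.99), the p53-induced Trp53inp1 by 0.77 and Sesn2 by 0.74, and Trp53 fell (-0.14). Among genes of the BCL2 family, which govern apoptosis, 6 of 14 rose and 2 fell. The killers Bmf (1.71) and Pmaip1 (0.80) led the rises, and Bax (0.29) and the survival gene Bcl2 (0.25) also rose. Those that fell, Bad (-0.23) and Bak1 (-0.14), are killers too.

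Cholesterol synthesis and uptake was the list with the lowest median, -0.308, among the 47 described. Of its 28 genes 19 fell and 2 rose, against falls in 22% of all genes and 34.9% in the highest bin of level. Insig1, which holds the sterol sensor in the endoplasmic reticulum, went from 131, 137, 134 and 147 CPM to 89.2, 88.4, 91.5 and 86.3 CPM (-0.62 ± 0.04 SE, adjusted p = 3.28e-13). The enzymes Nsdhl (-0.57) and Cyp51 (-0.45) fell with it. The 2 that rose were the exporters of cholesterol, Abcg1, from 14.1 to 35.6 CPM (1.33 ± 0.08 SE), and Abca1, which had under 2 CPM on average in either group (0.76). The call of Abca1 was lost without replicate 1, 2 or 4 of DMSO and without replicate 1 or 2 of BRD3308.

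Among chromatin genes the linker histones stood out. H1f0, the replacement H1 of cells that stop dividing, rose from 86.9, 103, 104 and 109 CPM in DMSO to 185, 253, 259.8 and 298 CPM in BRD3308 (1.30 ± 0.11 SE, adjusted p = 1.04e-10), with replicate 1 the lowest in both groups, and H1fx rose by 1.26. Over 21 histone genes 7 rose and 1 fell, against 24% and 22% of all genes. Of 18 histone acetyltransferases and BET readers, which write and read the mark that HDAC3 removes, 10 fell and 2 rose, with a median of -0.15. Falls made up 22% of all genes and 34.9% of those in the highest bin of level. Kat6b (-0.50), Kat2a (-0.32) and Crebbp (-0.29) fell, and the coactivator Ncoa3 rose (0.35). Of 29 Polycomb genes 6 rose, 7 fell and 16 were not called, which is about the share over all genes. Bmi1 fell from 46.4 to 29.5 CPM (-0.65 ± 0.05 SE), and Cbx6 rose (0.73). The deacetylase Sirt1 fell (-0.31).

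Immediate early genes were measured because inhibitors of deacetylases often raise them. Of 29 such genes, with AP-1 and Kruppel-like factors, 9 rose, 4 fell and 16 were not called, not far from the 24% and 22% of all genes. Jun rose from 25.1, 20.1, 15.6 and 16.1 CPM to 33.1, 62.2, 44.5 and 38.3 CPM, with a wide spread (1.2 ± 0.15 SE), Fosl2 by 0.74, Ier5 by 1.28 and the phosphatase Dusp1 by 0.87, and Junb (-0.23) and Klf16 (-0.42) fell. Of 21 signal transducers of cytokine receptors 6 fell and 4 rose, with a median of 0.033, shares near those of all genes, with Jak2 (-0.37) and Stat5a (-0.34) down and Cish (0.57) up.

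Many genes of unrelated lineages did not reach the filter on low counts. Those that did had counts in some group, so the numbers here do not describe the lists as wholes. Over all genes tested, 24% rose and 22% fell. Of 15 B lymphocyte genes 8 passed the filter, 6 rose and 1, Ighm, fell. Cd79a, a signalling chain of the B cell receptor, went from 2.50, 2.73, 3.38 and 3.94 CPM to 16.4, 15.0, 17.2 and 18.2 CPM (2.42 ± 0.13 SE), and the B lineage factor Ebf1 from 1.77 to 6.61 CPM (1.90), while Pax5 had 1 count in each group. Of 23 genes of T lymphocytes and NK cells 5 passed; Thy1 and Nkg7 (1.22) rose and Tcf7 fell (-0.58), and Cd3e had 1 count over the DMSO libraries and 5 over the BRD3308 libraries. Of 24 megakaryocyte and erythroid genes 10 passed and 6 rose, with the platelet chemokine Pf4 from 7.12 to 22.5 CPM (1.65 ± 0.09 SE) and no count of Hbb-bs. The eosinophil lectin Siglecf rose from 59.3 to 143 CPM (1.27 ± 0.05 SE), and the eosinophil peroxidase Epx had 0 and 1 counts. Of 8 mast cell and basophil genes 2 rose and 2 fell.

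Tissue-restricted genes outside blood were little represented. Of 41 neuronal and REST target genes 14 passed the filter and 7 rose, among them Mapt, which codes for tau (1.84, from 0.338 to 1.23 CPM), and Celsr3 fell (-0.76). Of 20 testis germline genes only Piwil2 passed. It rose by 2.92 to 0.722 CPM, close to the limit of detection. A list counted only through the members that reached the filter holds those that are high in some group, so these counts do not describe the lists as wholes.

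Some genes were almost silent in the controls. Of 38 tested genes with at most 3 counts summed over the 4 DMSO libraries, 20 rose. The filter admits such genes only where another group holds counts. The highest of the 20 was Havcr2, the checkpoint receptor TIM-3, with 2 counts in DMSO and 70 in BRD3308, a ratio of 33.7 with a 95% counting interval of 9.0 to 284 (exact binomial on depth-scaled totals). Nmur1, a receptor of neuromedin U, had 3 and 59 counts (ratio 19.0, interval 6.18 to 94.6), and the ciliary gene Ttc26 2 and 48 (ratio 23.1, interval 6.07 to 197). Sh2d6 had 3 and 42, Extl1 3 and 40, and the long noncoding RNAs Gm5547, Gm36975 and Gm48832 had 1 and 52, 2 and 48, and 2 and 38. Gm36975 is annotated antisense. The intervals cover counting error only.

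The same drug was given to cells with an ERG construct, and the response of BB cells was set against the mean of the responses of WT-ERG and P199L-ERG cells in 1 model. The difference passed for 122 genes with a larger change in BB cells (0.941% of those tested) and for 117 with a smaller one (0.903%), and 1670 genes had an unadjusted p under 0.05. Of the 5954 genes that rose or fell in BB cells, 96.6% had no difference that passed, which does not show that their responses were equal. Of the 122, 106 rose in BB cells, and of the 117, 54 rose and 37 fell. Changes were compared with their sign, so a smaller change also covers a deeper fall in BB cells. Ighm is such a gene, at -1.99 in BB cells, -1.12 with WT-ERG and -1.28 with P199L-ERG.

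Ifitm1, an antiviral membrane protein that also marks early progenitors, had the smallest p for a larger response. It went from 48.3 to 54.0 CPM over the DMSO libraries of BB cells to 163 to 194 CPM in BRD3308 (1.78 ± 0.06 SE), and its changes were 0.20 in WT-ERG and 0.48 in P199L-ERG cells, a difference of 1.44 ± 0.08 SE (adjusted p = 4.24e-13). Its control level was a mean of 285 CPM with WT-ERG and 204 CPM with P199L-ERG. Ifitm3 (difference 0.73), Thy1 (1.21), Ccr2 (0.64), Pecam1 (0.55) and the exonuclease Pld4 (0.66) followed. For Thy1 the mean went from 41.8 to 241 CPM with WT-ERG and from 28.9 to 196 CPM with P199L-ERG, so BB cells began lower and also ended lower. Gata2 rose in BB cells (0.92) and was at -0.01 with WT-ERG and 0.35 with P199L-ERG (difference 0.75 ± 0.12 SE, adjusted p = 4.13e-04).

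Genes with smaller responses in BB cells included several of monocytes and phagocytes. Cybb rose by 1.25 in BB cells, 2.19 with WT-ERG and 2.05 with P199L-ERG (difference -0.87 ± 0.09 SE, adjusted p = 1.86e-07). Its control mean of 49.9 CPM in BB cells stood above the 13.4 and 15.0 CPM of the ERG constructs. Adgre1 (difference -0.53), F13a1 (-0.38), Ly6c2 (-0.54), Csf2rb2 (-0.52) and the myosin Myo18b (-1.12) showed the same order. Sgms2, a sphingomyelin synthase, fell in BB cells, from 234, 236, 245 and 243 CPM to 202, 201, 197 and 202 CPM (-0.26 ± 0.04 SE), and rose with WT-ERG (0.29) and P199L-ERG (0.46), a difference of -0.63 ± 0.05 SE (adjusted p = 1.15e-09).

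The direction of the difference went with the control level. Of the 122 genes with a larger change in BB cells, 115 had a lower mean in DMSO in BB cells than in both ERG constructs, and of the 117 with a smaller change 107 had a higher one, against 5660 and 4931 of the 12963 genes tested. The DMSO libraries enter both quantities, so these counts are a description.

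**Figure D5:**
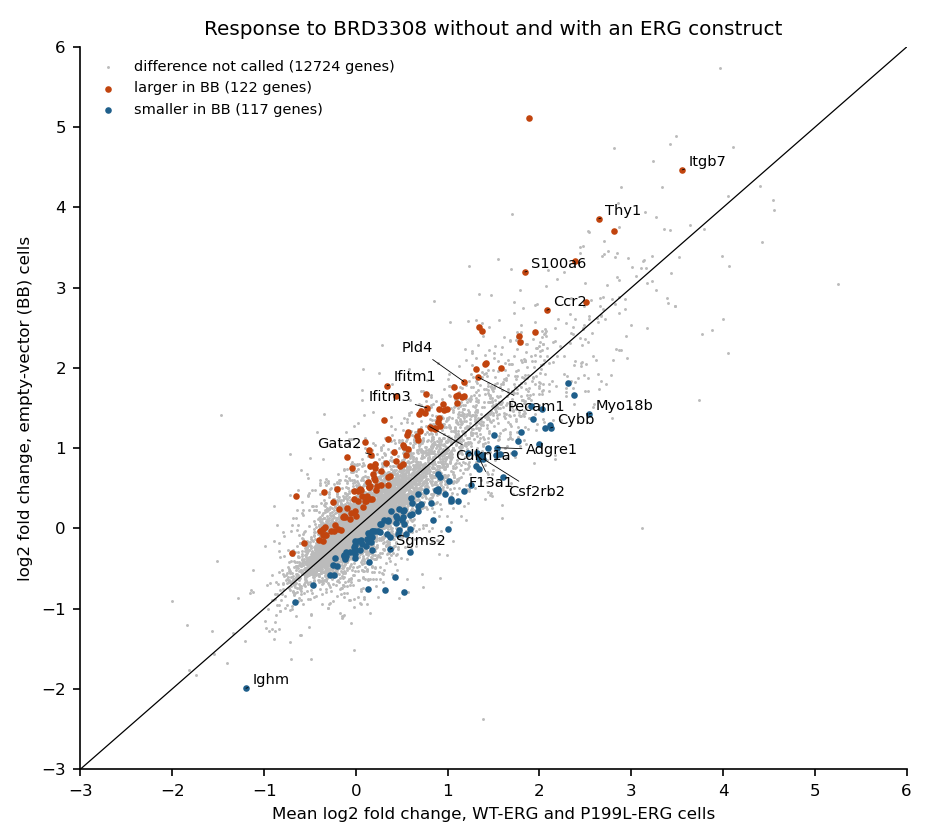
Log2 fold change in BB cells (vertical axis) against the mean log2 fold change in WT-ERG and P199L-ERG cells (horizontal axis) for each gene tested, with the line of equality. Orange marks the 122 genes with a larger signed change in BB cells and blue the 117 with a smaller one, which includes deeper falls. Ifitm1 lies far above the line and Myo18b and Cybb below it, while most genes lie close to it.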

How the data were processed

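RNA was measured by Illumina sequencing in 24 libraries. The authors deposited a table of raw counts per gene, made with cutadapt, STAR and HTSeq on GRCm38 after reads under 30 bp were discarded. Neither tool versions nor annotation release nor strand setting is given in the sources used here. Gene symbols and coordinates were matched by gene ID to GENCODE M21 (53706 of 53801 IDs).

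Counts of all 24 libraries (6 groups of 4) were fitted in edgeR 4.0.16 (R 4.3.3) with TMM factors and filterByExpr, which left 12963 genes, by the quasi-likelihood test with Benjamini-Hochberg adjustment over all of them and a threshold of 0.05. On simulated data for the BB response (12933 genes), 40 of 50 genes changed 1.5-fold and 46 of 50 changed 2-fold were called. Of 50 genes changed 1.2-fold only 22 were called, so many changes of that size can be missed. The changed genes were drawn above a minimum mean count, so low counts were not covered. Library measures were compared by exact permutation tests.

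The members and gene lists were chosen with earlier results of these data known. Genes were named by rule: the 12 largest rises and falls among genes without overlap whose log2 CPM averaged 2 or more, the 6 smallest p in each direction, up to 5 members of each list by p and those against its majority, the 8 highest of genes near 0 in DMSO, the 6 smallest p in each direction for the difference from the ERG responses, and a fixed set around HDAC3 and myeloid identity. Alternatives were other scalings (RLE, library size), filters, DESeq2 1.42.0, limma-voom 3.58.1, BB libraries alone, a replicate block, a threshold of 0.01 and each library left out. Some members of the lists are counted but not reported by name here.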

Additional observations from a re-analysis of the deposited data

Results flagged for a closer look

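Of 108 values of groups tested, each a set of 4 BB libraries for a gene or a library measure, 3 held a library far from the other 3 by Dixon's ratio, with 0.829 as the 95% limit. Chance alone marks about 1 in 20. Wfdc17 in BRD3308 had a ratio of 0.928, with 11.4, 11.7, 11.6 and 15.8 CPM. Gfi1 in DMSO had a ratio of 0.839, with 377, 404, 381 and 379 CPM. Hdac1 in DMSO had a ratio of 0.831, with 57.2, 60.4, 60.7 and 60.1 CPM. Wfdc17 and Hdac1 were called, and Gfi1 was not.

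The response of BB cells differed from the mean response of the ERG constructs, by the test of that difference in edgeR with adjusted p under 0.05, for 42 of the genes named by rule. For 25 the change on the log2 scale was larger in BB cells. Those that held with each library left out in turn were Ifitm1 (1.44), S100a6 (1.35), Thy1 (1.21), Adam8 (1.09), Cyp4f18 (0.95), Itgb7 (0.91), Gata2 (0.75), Ifitm3 (0.73), Clec4d (0.69), Pld4 (0.66), Ccr2 (0.64), Pecam1 (0.55), Nkg7 (0.52), Mmp14 (0.50), Ccr1 (0.48), Cdkn1a (0.47), Ccl9 (0.37) and Siglecf (0.36). Those lost with at least 1 library left out were Gm5547 (3.23), Irf5 (0.57), Bcl2 (0.35), Lsp1 (0.32), Dnajb9 (0.32), Herpud1 (0.28) and Fcgr2b (0.19). For 17 genes the change was smaller in BB cells, where a negative value also covers a deeper fall. Those that held throughout were Myo18b (-1.12), Cybb (-0.87), Ighm (-0.80), Cd80 (-0.64), Sgms2 (-0.63), Thbs1 (-0.57), Ly6c2 (-0.54), Adgre1 (-0.53), Csf2rb2 (-0.52), F13a1 (-0.38) and Mpeg1 (-0.38). Those lost with at least 1 library left out were Ifit2 (-0.44), Pxylp1 (-0.25), Il17ra (-0.24), Sgpp1 (-0.24), Itgam (-0.22) and Lipa (-0.21). In all 13 of the 42 were lost with some library left out, Gm5547 with an adjusted p of up to 0.135 and Lipa of up to 0.14. Genes were named partly by the smallest p of this difference, so their number says nothing of how common such differences are.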

How the results depend on the processing

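None of the 342 named genes, nor any of the differences between groups given, turned its direction under the alternatives run. The counts of genes that rose (3105) and fell (2849) ran from 2807 to 3270 and from 2620 to 3312 with single libraries left out, and were 3030 and 2778 with DESeq2, 3092 and 2863 with limma-voom and 3107 and 3148 with the 8 BB libraries alone. Falls outnumbered rises in that last setting, with library size alone (2958 and 3063) and without replicate 4 of P199L-ERG in DMSO (3270 and 3312). Rises beyond 1 ran from 885 to 942 and falls beyond 1 from 34 to 50 with single libraries left out. With more than 30 reads asked of every library they numbered 228 and 4, and without a filter falls beyond 1 numbered 69; these settings test fewer and more genes. Larger and smaller signed changes in BB cells than with ERG (122 and 117) ran from 83 to 176 and from 86 to 166 with single libraries left out. They were 286 and 312 with the replicate block and 58 and 61 at an adjusted p under 0.01, and the smaller ones numbered 196 without a filter. With both ERG DMSO libraries numbered 4 left out, chosen after seeing the data, they were 180 and 190. Those libraries leaned to short genes. Their deviations from the group mean correlated with log2 exon length at -0.4741 for WT-ERG and -0.4368 for P199L-ERG. P199L-ERG in DMSO number 1 leaned the other way, at 0.4226, and the BB libraries ran from -0.1487 to 0.2139. The part of length in the differences was not tested. The difference in detected genes was 724.5 when 1 count sufficed and 466.3 to 541.7 with single libraries left out. The other differences ran from -0.2273 to -0.04623 percentage points for mitochondrial counts, 1.129 to 1.397 for the 100 top genes and 0.235 to 0.3316 for genes not protein coding. With 3 libraries against 4 the smallest exact permutation p is 0.0571, so leaving 1 out cannot pass. Deviations of same-numbered DMSO and BRD3308 libraries correlated at 0.2346, 0.0309, 0.03277 and 0.1215, and replicate 3 of BRD3308 correlated best with replicate 4 of DMSO, so the numbers were not taken as pairs, although the second principal component placed same-numbered libraries near each other and the mitochondrial percent was lower in BRD3308 in all 4 same-numbered pairs. Under the replicate block 3487 genes rose and 3327 fell, and Spi1, Gfi1, Cbfa2t3, Pknox1, Rac2 and mt-Cytb passed, which they did not without it. Of 342 named genes, 21 lost a call with some library left out and 30 under some other setting. Rises made up 49.1% to 54.0% of calls throughout.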

Other observations

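Genes of lipid mediators and sphingolipids were affected in both directions, 13 rising and 7 falling of 25. Hpgds, a prostaglandin D synthase, rose from 2.61 to 9.25 CPM (1.81 ± 0.14 SE), the thromboxane synthase Tbxas1 by 0.80 and Sgms1 by 2.23, while Lta4h, which makes leukotriene B4 (-0.19), Ptges (-0.74) and Sgpp1 (-0.36) fell. Of 31 lysosomal genes 16 rose and 6 fell, with cathepsin L, Ctsl, at 1.10, the lipase Lipa at 0.68 and prosaposin, Psap, at 0.63. The unfolded protein and heat shock list had 6 rises and 8 falls of 29, not far from the 24% and 22% of all genes. Of 7 Hox genes and cofactors tested 3 rose and 1 fell, of 6 dendritic cell genes 4 rose, and of 11 class II and IV deacetylases and sirtuins 3 rose and 1 fell.

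Metabolic genes held few large changes. For comparison, 24% of all genes rose and 22% fell, and in the highest bin of level 17.6% rose and 34.9% fell. Of 20 glycolytic genes 8 fell and 5 rose, with the transporter Slc2a3 up (0.79), the hexokinases Hk1 (-0.24) and Hk3 (-0.30) down, and Aldoa left out because its symbol names 2 gene IDs. Of 48 nuclear genes of oxidative phosphorylation 9 fell and 1 rose, and the 8 mitochondrially encoded proteins did not pass, with a median of -0.0505. Without the filter on low counts mt-Cytb and mt-Nd1 passed, and mt-Cytb passed also under the replicate block and with the 8 BB libraries alone. Cytosolic ribosomal proteins rose in 22 of 65 and fell in 2, with a median of 0.153, and many of them have processed pseudogenes that could share their reads.

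Long noncoding RNAs rose in 23.3% of 965 genes and fell in 6.84%, with a median of 0.146, whereas protein-coding genes rose in 25.5% of 10984 and fell in 25.1%. With genes divided into 3 equal bins of exon length, 21.6% rose and 15.1% fell in the shortest, and 24.3% rose and 26.3% fell in the longest. Falls also went with level, at 3.58% in the lowest bin of level and 34.9% in the highest. Neither the biotypes nor the length bins were compared at equal level, so the part of level in these shares was not tested.

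Genes that passed with opposite signs in BB cells and in both ERG constructs numbered 6: Sgms2, Lpar1, Itih5 and Tspan2, which fell in BB cells, and Dapp1 and Tubb6, which rose. They were picked out after their values were seen. The receptor of lysophosphatidic acid Lpar1 changed by -0.61 in BB cells, 0.44 with WT-ERG and 0.41 with P199L-ERG, and Tubb6, a beta-tubulin, by 0.33, -0.30 and -0.19.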
